A study of Mus musculus with 2 samples.

Results

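The Ly49 receptors are C-type lectin-like proteins on the surface of natural killer (NK) cells and some T cells of mice, and this account covers the 7 members Klra1, Klra4, Klra5, Klra6, Klra7, Klra8 and Klra9. They were taken by gene symbol, 7 of the 11 Klra genes among the 13528 genes counted. Immune cells carrying CD45 were captured from mouse liver on the BD Rhapsody system, which counts the transcripts and 49 antibody-tagged surface proteins of the same cell. TG mice have the transgene dnTGFβRII, a dominant negative form of the human type II TGF-β receptor driven in T cells by the mouse CD4 promoter, and develop bile duct inflammation. WT mice were the C57BL/6 controls, and the labels give both groups the strain C57BL/6 and an age of 10 weeks, although the methods give a younger age. TG cells came from a capture library shared with IFN-γ ARE-Del-/- mice, and WT cells from a library shared with P40-/-IL-2Ra-/- mice. How many mice entered each pool was not given in the sources used here. There was 1 library per genotype, so no test was made, and in every difference between TG and WT the genotype and the library cannot be told apart.

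Ly49 receptors read MHC class I molecules on other cells, and a single NK cell carries some members of the family and lacks others. Most members are inhibitory, holding an immunoreceptor tyrosine-based inhibitory motif (ITIM) near the start of the protein, which recruits phosphatases when ligand binds. Klra1 encodes Ly49A, Klra5 Ly49E, Klra6 Ly49F, Klra7 Ly49G and Klra9 Ly49I, all of this kind. Klra4 (Ly49D) and Klra8 (Ly49H) are activating, lack the motif and signal through the adaptors DAP12 (Tyrobp) and DAP10 (Hcst). Ly49H is known for recognising a protein of mouse cytomegalovirus.

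The 7 genes lay on the minus strand of chromosome 6 within chr6:129898996-130386874 (GRCm38), a stretch of 487.9 kb that held 12 Klra genes and pseudogenes. In order along the chromosome these were Klra5 (chr6:129898996-129917650), Klra6 (chr6:130013033-130026954), Klra4 (chr6:130043731-130067271), Klra8 (chr6:130115226-130129898), Klra9 (chr6:130178675-130193112), Klra7 (chr6:130218605-130233322) and Klra1 (chr6:130363917-130386874). The first 60 coding bases of each member are shown because they hold the difference between inhibitory and activating receptors. Capitals mark the 6 codons of the ITIM where one was found, and all of these bases are exonic.
Klra1, chr6:130380603-130380662: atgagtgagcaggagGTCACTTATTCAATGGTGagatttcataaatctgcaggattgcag
Klra5, chr6:129911402-129911461: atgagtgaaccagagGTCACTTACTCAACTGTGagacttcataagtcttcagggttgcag
Klra6, chr6:130025160-130025219: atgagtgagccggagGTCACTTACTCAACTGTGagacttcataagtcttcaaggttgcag
Klra7, chr6:130231558-130231617: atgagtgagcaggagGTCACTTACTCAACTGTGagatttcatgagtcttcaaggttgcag
Klra9, chr6:130191242-130191301: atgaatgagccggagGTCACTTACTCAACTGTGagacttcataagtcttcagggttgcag
Klra4, chr6:130065243-130065302: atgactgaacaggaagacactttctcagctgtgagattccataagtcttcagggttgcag
Klra8, chr6:130128101-130128160: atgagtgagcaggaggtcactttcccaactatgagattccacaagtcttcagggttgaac

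The 5 inhibitory members each had 1 ITIM in the first 50 codons, starting at codon 6. Klra4 and Klra8 had 0. Both differ from Klra9 by A23T, counted from the first base of the start codon, which falls in codon 8, the tyrosine codon of the motif in the inhibitory members. Over the whole coding sequence the 21 pairs of members were 77.9% to 91.9% identical, with a median of 83.5%. Closer still to a member were 2 other Klra genes counted, since Klra9 was 96.9% identical to Klra10 and 95.9% to Klra3.

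Because the members are so alike, the assignment of reads was looked at before their levels. The share of stretches of 75 bases of a member's transcript that were also found in another Klra transcript was 19.66% for Klra8, 12.86% for Klra9 and 6.99% for Klra7. It was 0.34% for Klra4, 0.25% for Klra1 and 0 for Klra5 and Klra6. At 150 bases it was 6.03% for Klra8 and 0 for Klra7 and Klra9. The largest partner of Klra8 was the pseudogene Klra14-ps and that of Klra7 was Klra13-ps, and neither pseudogene is among the genes counted. Reads from these stretches could be dropped or shifted between genes, so levels of Klra8, Klra9 and Klra7 are the least certain of the 7, and the effect on ratios of TG to WT was not tested.

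The 4647 TG cells held 12751 Ly49 UMIs (unique molecular identifiers, each standing for 1 captured transcript) of 18498477 in all, and the 7282 WT cells held 6613 of 22216379. The median cell had 3298 UMIs in TG and 2653.5 in WT. Levels below are counts of a gene per 1000000 UMIs (CPM) of the summed cells, with 95% exact Poisson intervals in parentheses, and ratios are log2 values with exact conditional intervals. The intervals hold counting error alone, not the variation between cells, mice and captures. A gene was called when it differed at least 2-fold with at least 20 UMIs over both cell sets. The 2 libraries shared 36 cell barcodes among the named cells.

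Ly49 transcripts were concentrated in cells named NK and CD8αα T. NK cells held 42.9% of all Ly49 UMIs in TG and 60.5% in WT, and CD8αα T cells, 410 in TG and 194 in WT, held 32.7% and 19.8%. CD8αβ T cells held 18.5% in TG and 5.84% in WT, and NKT cells 1.69% and 9.97%. The summed level of the 7 members in CD8αα T cells was 3149.7 CPM (3055 to 3247) in TG and 2380.0 CPM (2253 to 2513) in WT. In NK cells it was 2395 CPM (2332 to 2459) in TG and 2490.3 CPM (2414 to 2569) in WT.

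Other cell types lay far lower. The sum was 446 CPM in TG against 126 CPM in WT for CD8αβ T cells, and 122 CPM and 99.8 CPM for NKT cells. Mature B cells, which are not expected to make these receptors, had 62.5 CPM (54.3 to 71.6) in TG and 37.9 CPM (31.8 to 44.8) in WT, but this level was not even over the cells. The 1028 TG and 1329 WT mature B cells of cluster 1 were at 29.3 CPM (23.7 to 36.0) and 6.36 CPM (3.77 to 10.0). The other 40 TG and 165 WT cells held 118 of 210 and 118 of 136 UMIs, and cluster 17, to which most of them belong, also held Cd3e at 728 CPM in TG against 609 CPM in WT. Both mature B levels are therefore given beside some of the low values below, and low values printed without them have the same limit. CD4 T cells, at 46.2 CPM in TG against 11.3 CPM in WT, were below all mature B cells and above those of cluster 1. TG macrophages stood at 189.5 CPM (157 to 227) and WT macrophages at 14.3 CPM (8.73 to 22.1). These were 116 UMIs in 109 TG cells and 20 UMIs in 261 WT cells, with doublets kept. In TG cluster 15 of 89 cells, which by its counts matches most of the TG macrophages, 3 cells held 40% of the 105 Ly49 UMIs. Within mature B cells 4 members were at least 2-fold higher in TG, beside 1.94% of all genes, and Klra8 was lower, beside 2.81%. In cluster 1, too, the level was higher in the TG library, which bears on every low level below.

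**Figure D1:**
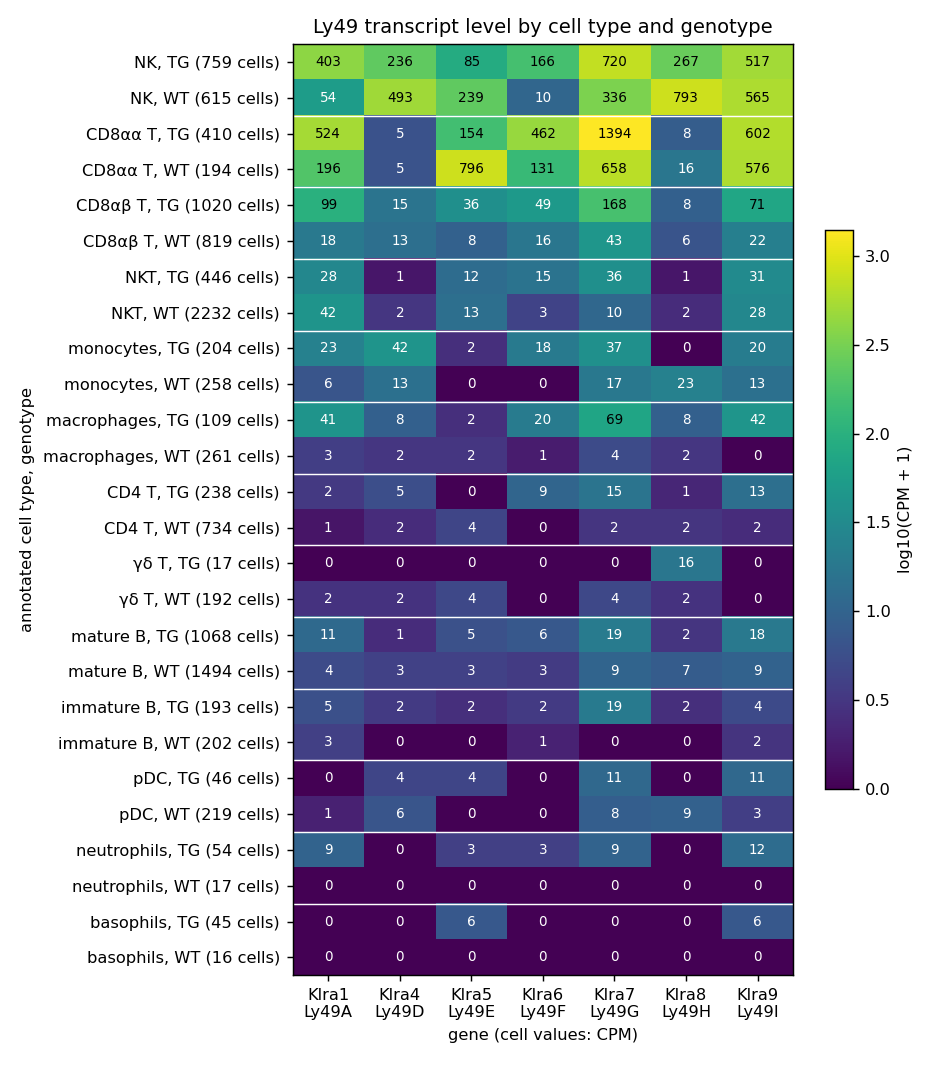
Heat map of the level of each member (CPM, colour on a log scale) in 13 cell types of TG and WT mice, without the few cells named as other. The brightest colours lie in NK and CD8αα T cells, where the summed level was 2380.0 to 3149.7 CPM, and mature B cells had 62.5 CPM in TG against 37.9 CPM in WT.

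The other Klra genes counted had homes of their own. Klra17 (Ly49Q) was at 306 CPM in TG against 353 CPM in WT plasmacytoid dendritic cells, against 1.31 CPM and 1.25 CPM in NK cells. Klra2 (Ly49B) was at 197 CPM in TG against 136 CPM in WT monocytes. Klra3 (Ly49C), which neighbours Klra1, was at 109.5 CPM and 124 CPM in NK cells.

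The annotation split NK cells into clusters 3, 8 and 11. The authors used CCA in Seurat to remove the batch between datasets, clustered the cells, and named cell types from surface proteins and transcripts together. The transcripts include these genes, so differences between clusters are given as a description. What the batch removal did to the TG and WT cells that share a cluster number was not tested. Ordered by the summed level, the highest was cluster 8 in WT with 4407 CPM (4255 to 4562), followed by cluster 8 in TG with 3607 CPM (3452 to 3767). Cluster 2, which is the whole of the CD8αα T cells, followed in TG with 3149.7 CPM, then cluster 11 in TG with 2900.3 CPM (2792 to 3012) and cluster 2 in WT with 2380.0 CPM. These 5 did not overlap in their intervals. Next came cluster 3 in TG with 933 CPM (866 to 1002), then cluster 7 of CD8αβ T cells in TG with 824 CPM (788 to 861) and cluster 3 in WT with 782 CPM (723 to 844), the last 2 of which overlapped. WT cluster 11 had only 22 cells and is left out of this order.

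The name NK was checked against T cell transcripts, and it did not hold equally in the 2 genotypes. Cells with a UMI of Cd3e, Cd3d or Trac, genes of the T cell receptor complex, made up 96.2% of cluster 3 in TG and 35.0% in WT. They were 99.7% of the 343 TG cells in cluster 11, and 48.4% of TG and 28.9% of WT cells in cluster 8. Among mature B cells the same share was 37.0% in TG and 26.4% in WT, and 35.2% and 18.7% in those of cluster 1. Cd3e itself was at 1608 CPM in TG against 122 CPM in WT cluster 3, at 1401 CPM in TG cluster 11, and at 133 CPM in TG against 67.5 CPM in WT cluster 8. Ncr1, the receptor NKp46 of NK cells, was at 883 CPM in TG against 988 CPM in WT cluster 8, at 506 CPM and 961 CPM in cluster 3, and at 412 CPM in TG cluster 11. The TG cells of clusters 3 and 11 thus carried T cell transcripts that go against their name, and they are called by cluster number. Cluster 8 was the NK cluster in which both genotypes lay closest to that background, and it leads the comparison.

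Cluster 8, with 153 TG and 287 WT cells, carried the transcripts of conventional NK cells. Eomes, a transcription factor of these cells, was at 391 CPM in TG against 692 CPM in WT, and Itgam at 495 CPM and 368 CPM. The surface protein CD49b, which marks them, had a median of 2.45 in TG and 1.99 in WT on the deposited centred log scale, and CD49a, the mark of liver-resident NK cells, 0.744 and 0.504. Both activating receptors were high in this cluster. Klra8 was at 1049 CPM (966 to 1137) in TG and 1711 CPM (1618 to 1809) in WT, and Klra4 at 945 CPM (866 to 1028) and 1078 CPM (1003 to 1156).

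Levels of different genes were set beside each other per kilobase of exon as well as per UMI, and whether UMI counts rise with length was not tested. The order in WT cluster 8 was Klra8 at 1453, Klra4 at 866, Klra9 at 616, Klra7 at 550.1, Klra1 at 52.3, Klra5 at 16.8 and Klra6 at 16.1 CPM per kb. The order in TG was Klra8 at 891, Klra4 at 759, Klra7 at 659, Klra9 at 372, Klra1 at 148, Klra6 at 23.8 and Klra5 at 11.4 CPM per kb. Klra5 and Klra6 were last in both, and their intervals overlapped. In both genotypes the order by CPM was the same as that per kilobase.

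Between genotypes cluster 8 differed little. Of the 7 members 1 was at least 2-fold higher in TG, beside 2.86% of all genes, and 0 were at least 2-fold lower, beside 4.09%. The one called was Klra1, the receptor Ly49A, at 262 CPM (221 to 308) in TG and 92.3 CPM (71.5 to 117) in WT, a log2 ratio of 1.50 (1.08 to 1.94). At full depth, a median of 3459 UMIs in TG and 2290 in WT, it was found in 33.3% of TG and 10.8% of WT cells. Klra8 and Klra9 were lower in TG by less than 2-fold, with log2 ratios of -0.71 (-0.85 to -0.56) and -0.73 (-0.94 to -0.52). Klra7 had 0.26 (0.08 to 0.44) and Klra4 -0.19 (-0.35 to -0.03). The median log2 ratio was -0.19 over the members and -0.05 over all genes.

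**Figure D2:**
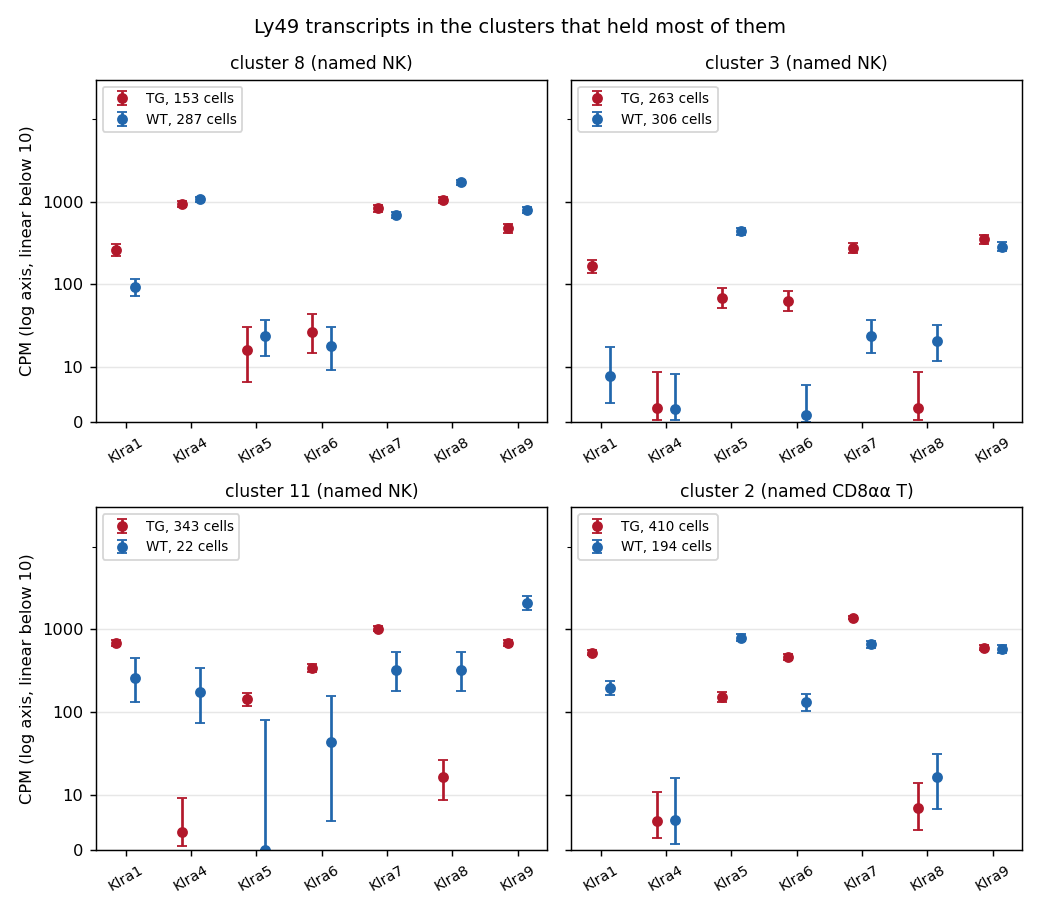
Level of each member (CPM on a log axis, linear below 10) in clusters 8, 3, 11 and 2, with red points for TG, blue points for WT and bars for the 95% exact Poisson interval. Klra4 and Klra8 stand between 945 and 1711 CPM in cluster 8 and at or below 20.4 CPM in clusters 3 and 2, while Klra5 is highest in WT clusters 3 and 2.

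Cluster 3 carried the marks of liver-resident NK cells or type 1 innate lymphoid cells in WT. Itga1, which encodes CD49a, was at 492 CPM there and at 5.51 CPM in WT cluster 8, and Eomes was at 28.8 CPM. Its Ly49 transcripts in WT were almost all of 2 inhibitory members. Klra5 was at 440.1 CPM (396 to 488) and Klra9 at 285 CPM (250.3 to 324). The activating Klra4 and Klra8 were at 2.40 CPM and 20.4 CPM, from 2 and 17 UMIs, beside 3.06 CPM and 7.24 CPM in WT mature B cells and 0.706 CPM each in those of cluster 1.

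In WT cluster 8 over cluster 3, 5 members were at least 2-fold higher, beside 4.62% of all genes, and 1 was at least 2-fold lower, beside 7.99%, out of the 6 members with enough UMIs. The log2 ratio was 8.81 (6.95 to 11.86) for Klra4, 6.39 (5.71 to 7.18) for Klra8 and 4.86 (4.22 to 5.58) for Klra7. Klra5 went the other way, at -4.23 (-5.03 to -3.53), with 23.4 CPM in cluster 8. Klra9 was the most evenly spread, at 1.47 (1.24 to 1.69). In TG the same ratio was 8.69 (6.83 to 11.74) for Klra8, 8.54 (6.68 to 11.59) for Klra4, 1.58 (1.35 to 1.82) for Klra7, -1.26 (-2.19 to -0.40) for Klra6 and -2.10 (-3.31 to -1.07) for Klra5, with 3 of 7 members at least 2-fold higher, beside 4% of all genes, and 2 at least 2-fold lower, beside 8.44%.

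The surface proteins give a split whose limits did not use transcripts, although it was made within the cells named NK in the annotation. A cell was counted as positive for CD49a or CD49b above the 95th percentile of mature B cells of its genotype. In WT, 242 NK cells (39.3%) were positive for CD49b alone, 120 (19.5%) for CD49a alone and 252 for both. For CD49b alone over CD49a alone, 5 members were at least 2-fold higher, beside 6.99% of all genes, and 1 was at least 2-fold lower, beside 7.37%, of 6 with enough UMIs. The set with CD49b alone held 617319 UMIs and that with CD49a alone 322107. Klra1, Klra4, Klra7 and Klra8 reached 20 UMIs only through CD49b, which limits the count of members. Klra8 was at 1672 CPM against 59.0 CPM, a log2 ratio of 4.82 (4.17 to 5.56). Klra4 was at 1042 CPM against 43.5 CPM, or 4.58 (3.83 to 5.46). Of the 120 cells with CD49a alone, 3 held the 19 UMIs of Klra8 and 2 the 14 UMIs of Klra4. In WT both activating receptors were thus higher with CD49b alone, and 226 of these 242 cells were in cluster 8.

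Among the inhibitory members Klra7 was at 692 CPM in WT cells with CD49b alone and 37.3 CPM in those with CD49a alone, or 4.21 (3.39 to 5.18). Klra1 had 70 UMIs in the first set and 0 in the second, and against a floor of 3 UMIs over the set it was at least 12.2-fold higher. Klra9 was found on both sides, with 869.9 CPM and 239 CPM. Klra5 alone was higher with CD49a, at 745 CPM against 22.7 CPM, a log2 ratio of -5.04 (-5.93 to -4.26). Ly49E is known from fetal and liver-resident NK cells, and in WT Klra5 had the highest level of the members in cells with CD49a alone. In the 27 TG cells with CD49a alone Klra9 was highest, at 835 CPM, and Klra5 was at 78.3 CPM. In WT the sum had a log2 ratio of 1.97 (1.81 to 2.13), and 2.15 (1.94 to 2.36) without cells with a T lineage UMI. In TG the sum was 3435 CPM with CD49b alone and 1409 CPM with CD49a alone.

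In TG most cells named NK, 625 of 759 or 82.3%, were positive for both proteins, 106 for CD49b alone and 27 for CD49a alone. Of the 625 cells 234 were in cluster 3 and 324 in cluster 11, whose T cell transcripts go against that name. Of the 27 cells with CD49a alone 96.3% had a UMI of Cd3e, Cd3d or Trac, and of the 106 with CD49b alone 55.7%. Klra4 had 320 UMIs with CD49b alone and 0 with CD49a alone, so it was at least 22.4-fold higher against the same floor. Klra8 had 360 UMIs and 0, and was at least 25.2-fold higher. The cells with CD49b alone held 364742 UMIs and those with CD49a alone 76635, so a member could reach 20 UMIs mainly through CD49b, and the shares of all genes called, 11.9% higher and 9.19% lower with CD49b, are given with no count of members. Klra5 and Klra6 did not reach 20 UMIs, with 8 and 7 UMIs (21.9 CPM and 19.2 CPM) beside CD49b and 6 and 9 UMIs (78.3 CPM and 117 CPM) beside CD49a. Klra9 had 425 CPM against 835 CPM, a log2 ratio of -0.97 (-1.40 to -0.53) that turned to 0.079 (-0.21 to 0.37) with the limit at the 99th percentile, and 3 of the 27 cells with CD49a alone held 65.6% of its 64 UMIs there. The gate largely repeated the clusters. Of the 106 TG cells with CD49b alone 85 were in cluster 8, and of the 27 with CD49a alone 25 were in cluster 3. In WT these were 226 of 242 and 118 of 120. The 320 Klra4 and 360 Klra8 UMIs of the TG cells with CD49b alone all lay in the 85 cells of cluster 8.

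Cells with both proteins held the activating receptors at levels between. In TG Klra4 was at 119 CPM and Klra8 at 133 CPM in the 625 cells with both, and in WT at 196 CPM and 324 CPM in 252 cells. Of these cells 67 in TG and 58 in WT were in cluster 8, where Klra4 was at 844 CPM and 929.9 CPM and Klra8 at 896 CPM and 1348 CPM. Outside cluster 8 the cells with both had Klra4 at 3.16 CPM and 1.9 CPM and Klra8 at 10.7 CPM and 53.2 CPM.

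TG over WT in cluster 3 gave 3 members at least 2-fold higher, beside 4.55% of all genes, and 1 at least 2-fold lower, beside 4.4%, of 5 with enough UMIs. Klra7 was at 279 CPM (243 to 318) in TG and 24.0 CPM (14.7 to 37.0) in WT, and Klra1 at 166 CPM and 8.40 CPM. Klra5 was at 68.4 CPM (51.4 to 89.3) in TG and 440.1 CPM in WT, a log2 ratio of -2.69 (-3.13 to -2.27). Klra9 was at 351 CPM and 285 CPM. Klra4 was at 2.53 CPM and 2.40 CPM, beside 1.49 CPM and 3.06 CPM in all mature B cells. Cd3e was 1608 CPM in these TG cells and 122 CPM in the WT cells, and its part in these differences was not tested.

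TG cluster 11 had 343 cells. Klra7 was at 1026 CPM (962 to 1093), Klra1 at 689.8 CPM (637 to 745), Klra9 at 684 CPM (632 to 740) and Klra6 at 338 CPM (302 to 378). Klra4 and Klra8 were at 3.23 CPM and 16.2 CPM. This set was close to that of TG cluster 2, the CD8αα T cells, where Klra7 was at 1394 CPM, Klra9 at 602 CPM, Klra1 at 524 CPM and Klra6 at 462 CPM. The surface proteins of TG cluster 11 had medians of 3.24 for CD49a, 2.31 for CD49b and 1.55 for TCRβ, beside 3.18, 1.15 and 1.60 in TG cluster 2. In the 22 WT cells Klra9 was at 2095 CPM (1699 to 2556).

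Over all cells named NK, the sum hardly differed between genotypes while single members did. The cells were spread differently over the clusters, with 263 TG and 306 WT cells in cluster 3, 153 and 287 in cluster 8, and 343 and 22 in cluster 11. For the sum the log2 ratio was -0.06 (-0.12 to 0.00), and -0.04 was the median over all genes. At least 2-fold higher were 3 of 7 members, Klra1, Klra6 and Klra7, beside 3.92% of all genes, and at least 2-fold lower were Klra4, Klra5 and Klra8, beside 4.3%. Klra6 had 4.06 (3.34 to 4.88), from 166 CPM in TG against 9.96 CPM in WT, and Klra8 had -1.57 (-1.71 to -1.43), from 267 CPM and 793 CPM. Klra4 had -1.06 (-1.22 to -0.90). Within cluster 8 alone Klra6 had 0.57 (-0.60 to 1.76) and Klra4 -0.19 (-0.35 to -0.03).

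These values were also read without cells that held a UMI of Cd3e, Cd3d or Trac, a choice made after seeing the data, which left 90 TG and 420 WT cells. Klra4 then turned to 0.91 (0.71 to 1.11) and Klra8 to 0.08 (-0.11 to 0.27), while Klra1 went from 2.91 (2.59 to 3.25) to 1.65 (1.1 to 2.20), Klra5 from -1.48 (-1.74 to -1.23) to -3.84 (-5.47 to -2.59) and Klra6 from 4.06 to 1.06 (-0.33 to 2.37). The sum was 0.32 (0.22 to 0.43). Of the 7 members 2 were then at least 2-fold higher, beside 3% of all genes, and 1 at least 2-fold lower, beside 8.19%. Leaving out those cells also changed the mix of clusters, since cluster 8 made up 79 of the 90 TG cells and 204 of the 420 WT cells, and the part of either in these values was not tested.

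Within cluster 8 the cells without Cd3e, Cd3d or Trac gave other ratios, again an alternative chosen after seeing the data. Klra8 was at 1055 CPM in TG against 1794 CPM in WT, a log2 ratio of -0.77 (-0.96 to -0.57). Klra4 was at 1130 CPM against 1087 CPM, or 0.06 (-0.15 to 0.26). Among the inhibitory members Klra1 was at 205 CPM against 90.1 CPM, or 1.19 (0.60 to 1.78), Klra9 had -0.40 (-0.68 to -0.13) and Klra7 -0.05 (-0.30 to 0.19). Klra5 had 5 UMIs in TG and 15 in WT, a ratio of -0.76 (-2.58 to 0.77) that was under 2-fold. The sum was 3764 CPM against 4558 CPM, or -0.28 (-0.38 to -0.17), and of the 7 members 1 was at least 2-fold higher, beside 3.25% of all genes, and 0 were at least 2-fold lower, beside 5.98%.

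CD8αα T cells lack the β chain of CD8 and were cluster 2 in this annotation. Their Cd8a was at 984 CPM in TG against 1104 CPM in WT and their Cd8b1 at 35.5 CPM and 40 CPM. Their Ly49 transcripts were nearly all of inhibitory members. Klra4 was at 5.28 CPM in TG against 5.45 CPM in WT, from 7 and 3 UMIs, and Klra8 at 7.55 CPM and 16.4 CPM, from 10 and 9 UMIs, beside 1.49 to 7.24 CPM of the 2 genes in mature B cells and 0.706 to 2.23 CPM in those of cluster 1. Klra7 led in TG with 1394 CPM (1332 to 1459), and Klra5 led in WT with 796 CPM (724 to 875). Per kilobase, Klra7 was at 1102, Klra9 at 471, Klra6 at 414 and Klra1 at 297 in TG, and Klra5 at 569.6, Klra7 at 520.3 and Klra9 at 451 in WT. By CPM Klra1, at 524 in TG, stood above Klra6, at 462, so the order of these 2 depended on the scale.

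TG over WT in cluster 2 gave 3 of 5 members at least 2-fold higher, beside 5.37% of all genes, and 1 at least 2-fold lower, beside 2.46%. Klra6 was at 462 CPM (426 to 500.1) in TG and 131 CPM (102 to 165) in WT, a log2 ratio of 1.82 (1.47 to 2.19). It was found in 66.1% of TG and 20.1% of WT cells at full depth, and in 135 TG and 22 WT cells after thinning. Klra1 was at 524 CPM and 196 CPM, or 1.42 (1.12 to 1.72), and Klra7 had 1.08 (0.92 to 1.25). Klra5 was at 154 CPM (134 to 177) in TG and 796 CPM in WT, a log2 ratio of -2.37 (-2.62 to -2.13). It was found in 14.1% of TG and 46.9% of WT cells at full depth, and in 39 TG and 71 WT cells after thinning. Klra9 did not differ beyond counting error, at 0.06 (-0.13 to 0.26).

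The cells of cluster 2 differed between genotypes in a T cell receptor gene. Trdc, the constant part of the δ chain of the T cell receptor, was found in 82 of 194 WT cells (42.3%) and in 20 of 410 TG cells (4.88%). It was also found in 26.5% of WT and 20.9% of TG cells of cluster 8, beside 0.602% and 1.12% of mature B cells. A Trdc UMI therefore does not by itself mark a γδ T cell here. Within WT, cells with Trdc had less of 3 of the 5 members by at least 2-fold, beside 3.26% of all genes, and more of 0, beside 2.73%. Klra7 was at 239.9 CPM with Trdc and 967 CPM without, or -2.01 (-2.45 to -1.60), while Klra5 was at 702 CPM and 866 CPM, or -0.30 (-0.59 to -0.02). Without the cells with Trdc, Klra5 remained lower in TG at -2.56 (-2.84 to -2.29) and Klra6 higher at 1.41 (1.01 to 1.82), Klra1 was at 0.92 (0.60 to 1.26) and Klra7 at 0.55 (0.38 to 0.73). Of the 5 members 1 was then called higher, beside 8% of all genes, and 1 lower, beside 2.44%, and the sum was at 0.07 (-0.04 to 0.17) where it had been 0.40 (0.31 to 0.49). The WT cells of cluster 2 also held red cell transcripts, with Hbb-bs at 1351 CPM against 0.755 CPM in TG, whose part in these values was not tested.

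**Figure D3:**
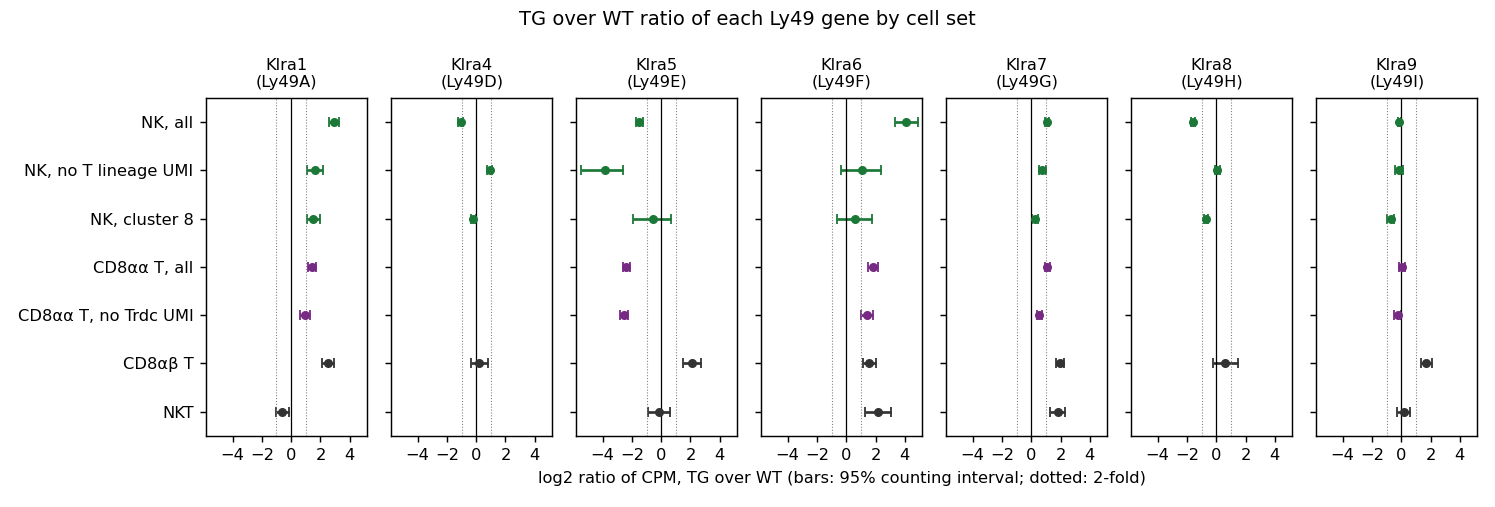
Log2 ratio of TG over WT for each member (panels) in 7 cell sets (rows), with 95% exact conditional intervals and points under 20 UMIs left out. Klra5 lies at -2.37 in CD8αα T cells and at 2.08 in CD8αβ T cells, whereas Klra1 is above 0 in the NK, CD8αα T and CD8αβ T rows, at 2.91, 1.42 and 2.50, the last of which was -0.61 outside cluster 7.

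The cells named CD8αβ T were several-fold lower in Ly49 transcripts than cluster 2, with 2.82 (2.75 to 2.89) for the sum of cluster 2 over them in TG and 4.24 (4.08 to 4.41) in WT. In cluster 2 over them 5 of 7 members in TG and 6 of 7 in WT were at least 2-fold higher, beside 9.18% and 9.79% of all genes, and 1 in each, Klra4, was at least 2-fold lower, beside 8.98% and 11.3%. TG over WT in these cells gave 5 of 7 members at least 2-fold higher, beside 4.15% of all genes, and 0 at least 2-fold lower, beside 3.05%. The log2 ratio was 2.50 (2.09 to 2.93) for Klra1, 2.08 (1.48 to 2.73) for Klra5, 1.95 (1.69 to 2.23) for Klra7, 1.72 (1.33 to 2.12) for Klra9 and 1.58 (1.14 to 2.04) for Klra6. All 5 are inhibitory. The activating Klra4 and Klra8 had 0.21 (-0.36 to 0.79) and 0.58 (-0.26 to 1.48), with 15.1 CPM and 8.30 CPM in TG. The median was 1.72 over the members and 0.03 over all genes.

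Cluster 7 held 1992 of the 2365 Ly49 UMIs of the TG cells named CD8αβ T. Cd8b1, which encodes CD8β, was found in 35.4% of its TG and 32.6% of its WT cells, beside 65.5% and 74.0% in cluster 12 and 92.7% and 57.2% in cluster 13, and Cd4 in 56.7% and 40.2%. Its name did not hold for all its cells, and it is called by its number. The CD8β antibody had a median of 0.571 in TG and 0.587 in WT cluster 7, but its medians of 1.64 and 1.73 in the B cells of cluster 1, beside 1.94 and 1.88 in cluster 4, limit what it can say. Outside cluster 7, an alternative chosen after seeing the data, the sum was 129 CPM in 701 TG cells against 111 CPM in 687 WT cells, a log2 ratio of 0.22 (-0.02 to 0.46). Klra5 had 0.66 (-0.72 to 2.20). Of the 6 members with enough UMIs 2 were at least 2-fold higher there, beside 4.13% of all genes, and 0 were at least 2-fold lower, beside 2.47%. These were Klra9 at 1.30 (0.79 to 1.83) and Klra8 at 1.26 (0.08 to 2.61), while Klra1 turned to -0.61 (-1.36 to 0.13), Klra6 to -0.82 (-1.49 to -0.17) and Klra7 to -0.11 (-0.52 to 0.30).

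The clusters named CD8αβ T did not move together. In cluster 7 the sum was 824 CPM in 319 TG cells and 159.8 CPM (135 to 188) in 132 WT cells, and 5 of 7 members were at least 2-fold higher, beside 4.85% of all genes, with 0 lower, beside 3.22%. Klra7 was at 322 CPM (299 to 345) in TG and 45.8 CPM (33.2 to 61.7) in WT, and Klra6 at 91.8 CPM and 3.20 CPM. TG cluster 7 held 2418734 UMIs and WT 938420, so a member could reach 20 UMIs more readily through TG, as Klra6 did. The WT UMIs sat in few cells, since 3 cells held 89.5% of those of Klra1 and 62.8% of those of Klra7. In cluster 12 Klra9 was the leading member, with 122 of 181 Ly49 UMIs in TG, at 166 CPM (138 to 198) in TG and 27.3 CPM (10.0 to 59.5) in WT. Klra7 had 25 UMIs in TG and 0 in WT, and was at least 2.49-fold higher against a floor of 3 UMIs over the set. TG cluster 12 held 734564 UMIs and WT 219631, so a member could reach 20 UMIs mainly through TG, and the shares of all genes called there, 8.74% higher and 3.85% lower, are given with no count of members.

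Cluster 13 went the other way. Its sum was 123 CPM (102 to 147) in 177 TG cells and 397 CPM (343 to 457) in 138 WT cells, a log2 ratio of -1.69 (-2.04 to -1.36). Of the 4 members with enough UMIs 4 were at least 2-fold lower, beside 3.95% of all genes, and 0 higher, beside 4.88%. Klra7 was at 53.7 CPM in TG against 182 CPM in WT, Klra6 at 20.6 CPM and 88.9 CPM, and Klra1 at 16.5 CPM and 72.4 CPM. The name did not hold equally in cluster 13, where Cd8b1 was found in a smaller share of WT than of TG cells. The CD8β antibody had a median of 0.657 in WT cells with a Ly49 UMI and 2.02 in those without, beside 1.72 and 2.20 in TG. Whether the Ly49 transcripts of WT cluster 13 came from CD8αβ T cells was not tested. In cluster 4 both were low, at 47.1 CPM (32.6 to 65.8) in TG against 8.58 CPM (3.92 to 16.3) in WT for the sum. These values lay between those of cluster 1 and of all mature B cells of each library. Their intervals overlapped that of cluster 1 in both genotypes, and that of all mature B cells in TG.

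**Figure D4:**
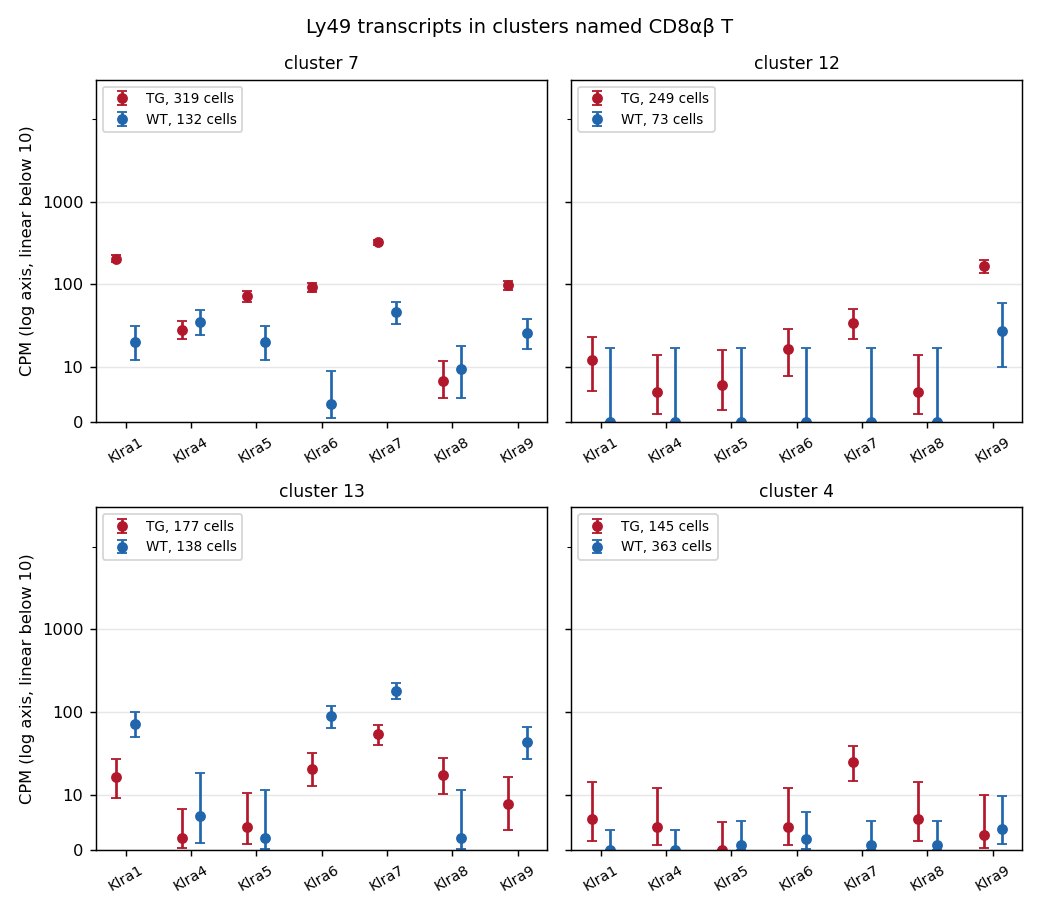
Level of each member (CPM on a log axis, linear below 10) in clusters 7, 12, 13 and 4 of the cells named CD8αβ T, with red points for TG, blue points for WT and bars for the 95% exact Poisson interval. TG is above WT for Klra1, Klra6 and Klra7 in cluster 7, where Klra7 is at 322 CPM and 45.8 CPM, and below WT for the same genes in cluster 13.

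Surface proteins differed between cluster 7 cells with and without a Ly49 UMI. In TG, CD49a had a median of 2.80 in the 143 cells with a Ly49 UMI and 0.920 in the 176 cells without, and NK1.1 1.31 and 0.785. In WT, CD49a had 0.596 in the 15 cells with and 0.480 in the 117 without, and NK1.1 0.772 and 0.527. In TG, CD8β had 0.484 with and 0.754 without. The median depth with and without a Ly49 UMI was 7040 and 7736 UMIs in TG cluster 7, 6717 and 6596 in WT cluster 7, 5520 and 5477 in TG cluster 13, and 3070 and 3743 in WT cluster 13. In WT cluster 13, CD8β had 0.657 in the 55 cells with a Ly49 UMI and 2.02 in the 83 without. In TG cluster 13, CD8β had 1.72 in the 42 cells with and 2.20 in the 135 without, and CD49a 0.637 and 0.685. In WT cluster 7, CD8β had 0.629 with a Ly49 UMI and 0.586 without. TCRβ in TG cluster 7 was 2.00 with a Ly49 UMI and 2.85 without.

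The cells named NKT, a class the authors defined by CD3 and NK1.1, had little Ly49. The sum was 122 CPM (107 to 140) in TG and 99.8 CPM (92.3 to 108) in WT. Of 5 members with enough UMIs 2 were at least 2-fold higher in TG, beside 4% of all genes, and 0 lower, beside 2.71%. Klra7 was at 35.7 CPM in TG against 10.1 CPM in WT and Klra6 at 14.7 CPM and 3.33 CPM, beside 19.1 CPM and 9.18 CPM of Klra7 in mature B cells and 10.5 CPM and 2.47 CPM in those of cluster 1. Klra1 was at 27.8 CPM and 41.8 CPM.

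The number of members per cell was counted after thinning every cell to 1000 UMIs, so that depth was the same in all. In cluster 8 at least 1 member was found in 82.4% (75.4% to 88.0%) of TG and 88.9% (84.6% to 92.2%) of WT cells, and at least 2 in 59.5% and 65.9%. In cluster 2 at least 1 was found in 88.8% (85.3% to 91.7%) of TG and 75.3% (68.6% to 81.2%) of WT cells, and at least 2 in 54.1% and 35.1%. Without thinning the share with at least 1 was 94.1% and 93.4% in cluster 8 and 98.5% and 85.6% in cluster 2. Cluster 3 had 40.7% of TG and 35.6% of WT cells with at least 1 member. Mature B cells gave 2.81% in TG and 1.47% in WT, those of cluster 1 2.14% and 0.828%, NKT cells 6.28% and 6.05%, and CD8αβ T cells 17.9% and 6.47%. In the NK, NKT, CD8αα, CD8αβ, CD4 and mature B sets, the cell types counted, no cell held more than 5 members after thinning or 6 before.

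**Figure D5:**
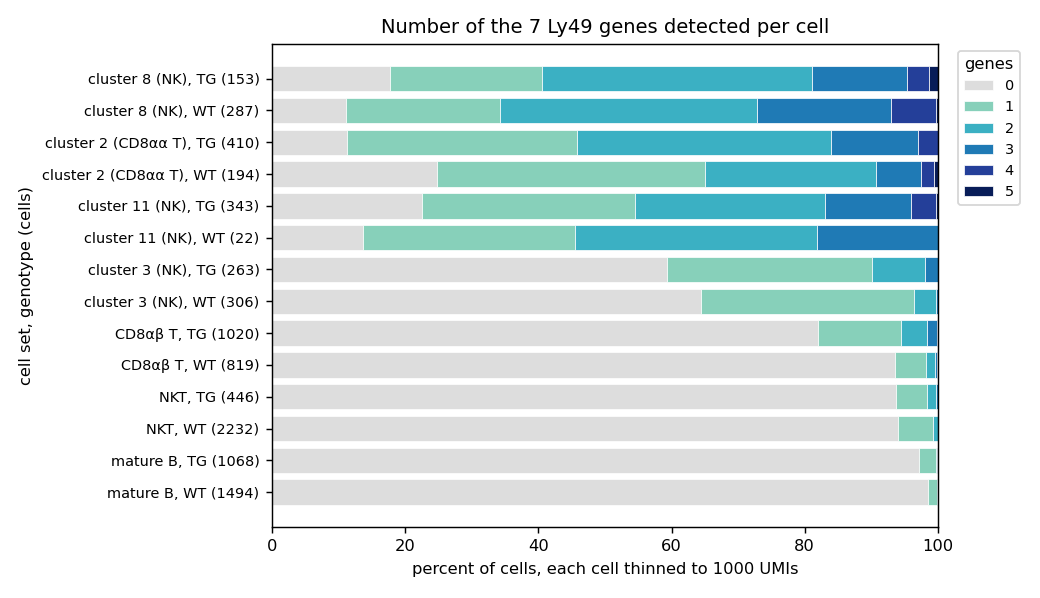
Share of cells (percent, stacked bars) with 0 to 5 Ly49 genes after thinning to 1000 UMIs, for each cell set and genotype. Cells with at least 2 genes make up 65.9% of WT and 59.5% of TG cluster 8, and 35.1% of WT and 54.1% of TG cluster 2.

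Pairs of members showed weak correlations across single cells of clusters 8 and 2. The correlation of presence and absence (phi) over pairs of members had a median of 0.04 in TG and 0.01 in WT cluster 8, and of -0.03 in TG and 0.10 in WT cluster 2. The 2 activating receptors had 0.10 in TG and 0.01 in WT cluster 8. There, Klra8 was found in 52.6% of WT cells with Klra4 and in 52.0% of those without. In TG cluster 2, Klra9 was found in 23.2% (18.1% to 29.1%) of the cells with Klra7 and in 41.4% (33.9% to 49.2%) of those without, whereas in WT it was found in 41.4% (28.6% to 55.1%) and 26.5% (19.3% to 34.7%). The highest value was found outside these clusters, for Klra1 with Klra7 in TG cluster 3, at 0.37, where Klra7 was found in 51.9% of the 27 cells with Klra1 and in 9.75% of the 236 without. The same pair had 0.18 in TG cluster 11. All these correlations are across cells of 1 library with sparse counts and are given as a description.

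Across 39 profiles of cluster and genotype with at least 50 cells, the patterns of the members were compared. Pearson correlations of log2(CPM + 10) were 0.94 for Klra1 with Klra7, 0.91 for Klra1 with Klra6 and 0.89 for Klra6 with Klra7. Klra4 and Klra8, the activating pair, had 0.91. Klra9 had 0.87 with Klra7, 0.85 with Klra1 and 0.78 with Klra5. Klra4 and Klra5 had 0.10. The profiles share 2 libraries and their depth.

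Over the 300 bases around their starts the promoters of Klra4 and Klra8 were 86.3% identical, and their coding sequences were 79.1% identical. Klra3 and Klra9 had the most alike promoters, at 90.3%, with a pattern correlation of 0.82, while Klra1 and Klra7, at 0.94, had 50% (identical bases of the 300). Every pair with Klra1 had 48% to 54%, and the Klra1 window lay farther from its coding start than those of the other members. Whether it is the counterpart of their windows was not tested. The 250 bases before the start of Klra4 and Klra8 (RefSeq, GRCm38.p6, minus strand, 5′ to 3′) are shown because of their pattern correlation of 0.91. Both genes were far higher in cluster 8 than in clusters 2 and 3, and how far the correlation rests on cluster 8 was not tested. Across single cells of cluster 8 their phi was 0.10 in TG and 0.01 in WT. Capitals mark the longest run they share, of 27 bases, which ends 40 bases before the start in Klra4 and 41 in Klra8.
Klra4, chr6:130067272-130067521: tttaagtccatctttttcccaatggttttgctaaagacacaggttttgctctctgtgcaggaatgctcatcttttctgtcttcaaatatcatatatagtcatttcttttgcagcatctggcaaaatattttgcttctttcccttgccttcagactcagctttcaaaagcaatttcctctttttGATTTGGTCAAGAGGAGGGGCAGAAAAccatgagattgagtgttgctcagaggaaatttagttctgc
Klra8, chr6:130129899-130130148: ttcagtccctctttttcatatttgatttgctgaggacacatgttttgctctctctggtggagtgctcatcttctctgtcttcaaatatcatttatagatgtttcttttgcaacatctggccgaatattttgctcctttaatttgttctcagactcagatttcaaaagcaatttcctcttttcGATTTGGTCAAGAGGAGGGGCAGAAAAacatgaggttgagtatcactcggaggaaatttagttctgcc

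The letters TGTGGT, the core bound by Runx factors, and TCACAC, a core bound by T-box factors, were searched on both strands. Klra1 was the one member whose promoter held them, with 1 of each. Its window, chr6:130386825-130387124, lay farther from its coding start, at base 130380662, than those of the other members. Of 32851 promoters of the same length, 16.8% held the first and 14.5% the second. A match is a description of letters in this window.

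By the likeness of their pattern over the same 39 profiles, Klra4 and Klra8 had the same 3 genes at the top of 9766 compared. These were Serpinb9b, a serine protease inhibitor gene, at 0.95 and 0.93, Cma1, which encodes a mast cell protease, at 0.86 and 0.85, and the lectin-like receptor gene Klri2 at 0.77 and 0.83. The sum of the 7 was most like Spry2 (0.94), the lectin-like receptor gene Klre1 (0.92) and Ncr1 (0.90). Klra9 had the same 3 as the sum. Klra5 was most like the gene listed as X2900026A02Rik, Cd200r4 and Ccdc85c, each at 0.83, and Klra6 most like Itgad (0.75).

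The partners of the receptors were read from fixed lists. In cluster 8, TG over WT, 0 of 4 adaptors, 0 of 11 signalling genes and 0 of 3 ligand genes (H2-D1, H2-K1 and B2m) were called, beside 2.86% of all genes higher and 4.09% lower, with medians of 0.04, 0.13 and 0.15. Tyrobp, the adaptor of the activating receptors, was at 2650.0 CPM in TG against 2473 CPM in WT. Of the regulators of NK and T cell fate, 1 was called higher and 1 lower of 10 with enough UMIs, namely Ikzf2 at 1.11 (0.31 to 1.94) and Tcf7 at -1.21 (-1.72 to -0.73). Eomes had -0.82 (-1.06 to -0.59) and Tbx21 0.68 (0.40 to 0.96).

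In cluster 2, TG over WT, 0 of 4 adaptors, 1 of 11 signalling genes (Sh2d1b1, lower), 0 of 3 ligand genes and 2 of 11 regulators (Ikzf2 and Prdm1, higher) were called, beside 5.37% of all genes higher and 2.46% lower. Ikzf2, which encodes the factor Helios, was at 507 CPM in TG against 191 CPM in WT, and Tyrobp at 1176 CPM and 1582 CPM. In CD8αβ T cells 2 of 4 adaptors were called higher in TG, Tyrobp at 1.62 (1.39 to 1.87) and Fcer1g at 1.79 (1.60 to 1.98), and 1 of 10 signalling genes with enough UMIs, Plcg2 at 1.46 (1.00 to 1.95), beside 4.15% of all genes. Of the regulators 1 of 11 was called higher, Tbx21 at 1.78 (1.56 to 2.01), from 209 CPM against 60.7 CPM, and of the ligand genes 0 of 3. None of these lists had a gene called lower, beside 3.05% of all genes. These CD8αβ T cells included cluster 7, which held 1992 of their 2365 Ly49 UMIs in TG and whose name did not hold for all its cells. The part of cluster 7 in the list calls for CD8αβ T cells, here and in the next comparison, was not tested. Set against CD8αβ T cells, TG cluster 2 had 2 of 4 adaptors, 2 of 11 signalling genes and 3 of 11 regulators at least 2-fold higher and 2 regulators lower, beside 9.18% of all genes higher and 8.98% lower. Tyrobp was at 1176 CPM against 176 CPM and Fcer1g at 1704 CPM against 289.7 CPM. Of the receptors that use Tyrobp, Klra4 was at 5.28 CPM in TG cluster 2, 15.1 CPM in TG CD8αβ T cells and 1.49 CPM in TG mature B cells, and Klra8 at 7.55 CPM, 8.30 CPM and 2.08 CPM.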

How the data were processed

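Per the labels and the methods of the study, CD45+ liver cells were captured on BD Rhapsody with 49 antibodies, and the authors aligned reads to mm10 with STAR in the BD pipeline. The authors deposited UMI counts per gene for all called cells (10026 and 24111) and a filtered table of 11929 cells, whose filter is not given in the sources used here. The deposited antibody values are natural log centred ratios. The mitochondrial percent of each cell, computed by the authors, was not used. Cell types, clusters and genotypes came from the deposited metadata, made in Seurat, where the authors removed the batch between datasets with CCA. The 5379 and 16829 cells without a genotype name entered no comparison. The Klra counts of the filtered table equalled those of the library files, with 0 of 131219 values differing.

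UMI counts were summed per cell set and genotype. Shares have Clopper-Pearson intervals. Doublets (Scrublet in scanpy 1.11.5 with an expected rate of 5%, marking 0.839% of TG and 3.31% of WT cells, or at least 2 UMIs of B lineage together with 2 of T lineage genes, marking 9.30% and 4.41%) were kept in the main values. Alternatives were TMM scaling (edgeR 4.0.16, R 4.3.3), other weights, depths, gates and cell sets. Gene positions and coding sequences are from GENCODE for GRCm38. The calculations were tested on simulated data. Python 3.11.15, numpy 2.4.6, scipy 1.17.1, pandas 2.3.3 and biopython 1.88 were used.

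The members and lists were chosen with earlier results of these data known. Named genes were the members, other Klra genes, the lists of adaptors, signalling genes, ligands and regulators, lineage markers, and for each member and the sum the 3 genes with the highest correlation among those with at least 200 UMIs. Sorted-cell sequencing, receptor repertoires and flow cytometry were not used here.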

Additional observations from a re-analysis of the deposited data

Results flagged for a closer look

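Klra5 had opposite directions between cell types. On the log2 scale, TG over WT gave 2.08 (1.48 to 2.73) in CD8αβ T cells, -1.48 (-1.74 to -1.23) in NK cells and -2.37 (-2.62 to -2.13) in CD8αα T cells. The first value rests on cluster 7, and outside it Klra5 had 0.66 (-0.72 to 2.20) in CD8αβ T cells. The value in cells named NK includes TG clusters 3 and 11, whose T cell transcripts go against that name. In these clusters 96.2% and 99.7% of TG cells had a UMI of Cd3e, Cd3d or Trac. With 1 library per genotype the difference between cell types was not tested.

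The cells of the TG library without a genotype name, which entered no comparison, also held Ly49 transcripts. Their sum was 346 CPM (338 to 354) in 5379 cells, from 8033 UMIs, beside 62.5 CPM (54.3 to 71.6) in the named TG mature B cells and 29.3 CPM in those of cluster 1. The 16829 unnamed cells of the WT library had 96.0 CPM (93.7 to 98.5), beside 37.9 CPM (31.8 to 44.8) and 6.36 CPM.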

How the results depend on the processing

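No paired analysis was possible because each genotype had 1 library and no replicate. The values that leave out cells with Cd3e, Cd3d or Trac and those of single CD8αβ clusters, outside cluster 7, of cluster 8 alone for the shares or with the cluster 1 level subtracted were alternatives chosen after seeing the data. For each, the cause of a change was not tested.

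The summed log2 ratio in cells named NK, -0.06, was -0.16 with equal weight for each cell, 0.25 in cluster 3, -0.29 in cluster 8 and -0.15 in cluster 11. It was 0.32 without cells with Cd3e, Cd3d or Trac and -0.28 in cluster 8 without them. In NKT cells 0.29 became 0.040 without doublets and -0.050 after the mature B level was subtracted, and -0.0064 with that of cluster 1 mature B cells. In CD8αα T cells 0.40 became 0.066 without cells with Trdc. In CD8αβ T cells 1.82 became 1.50 with equal weight and 2.12 after subtraction of the mature B level, and was 2.46 in cluster 4, 2.37 in cluster 7, 3.17 in cluster 12, -1.69 in cluster 13 and 0.22 outside cluster 7.

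For CD49b alone over CD49a alone in WT, 1.97 became 2.21 with a limit at the 99th percentile and 2.15 without cells with T lineage UMIs. The share of NK cells with a Ly49 transcript in TG, 65.7%, was 78.1% without thinning, 74.0% at 2000 UMIs, 74.4% without cells with Cd3e, Cd3d or Trac and 82.4% in cluster 8. In WT 62.3% became 69.3% without thinning and 88.9% in cluster 8.

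Single genes that turned were Klra4 in NK cells (0.079 in cluster 3, 0.91 without cells with T lineage UMIs and 0.056 in cluster 8 without them), Klra8 there (0.079), Klra7 there (-0.051 in cluster 8 without them), Klra1, Klra6 and Klra7 outside cluster 7 (-0.61, -0.82 and -0.11), Klra1, Klra6, Klra7 and Klra9 in cluster 13 (-2.13, -2.11, -1.76 and -2.39), Klra9 in cluster 4 (-0.46) and Klra9 across the protein gate in TG (0.079 at the 99th percentile). Of the other alternatives, 38 summary values and 251 single-gene values moved by less than their interval and 60 single-gene values moved by more without changing direction.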
